A study of Mus musculus with 4 samples.

Results

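Transcripts of 10 dual specificity phosphatases that act on MAP kinases were examined in whole adrenal glands of adult male C57BL/6 mice. The genes, Dusp1, Dusp2, Dusp4, Dusp5, Dusp6, Dusp7, Dusp8, Dusp10, Dusp14 and Dusp16, were chosen by name, with earlier results of these data known. All 10 were found, once each, among 54532 genes in the count table and among the 16027 genes with enough counts to be tested. The treated mice received 10 µg of dexamethasone, a synthetic glucocorticoid, into the peritoneum, and the control mice received phosphate-buffered saline (PBS). No mutant allele or transgene was used, each group held 5 mice, and the right gland was taken 1 h after injection. Each group was sequenced as 2 libraries, from glands of 2 and of 3 mice combined, and which library holds which pool is not stated. Every mean and SD below, and every test with all libraries, therefore has n = 2 in each group. Where a library is left out, its group is a lone library, assumed to vary like the other group. Calls and adjusted p-values from such fits rest on that assumption. Both replicate 1 libraries stood apart in liver transcripts: Alb, Apoa1 and Ttr, with 3 kidney markers at 0 to 2 reads, summed to 26.3 and 3.31 CPM after dexamethasone (replicates 1 and 2), against 74.6 and 8.22 CPM after PBS. With all libraries 0 of these 3 liver genes passed in edgeR or DESeq2 or had an unadjusted p under 0.05, and without dexamethasone replicate 1 all 3 were called lower, as were 2 without PBS replicate 2. Log2 fold changes without a replicate 1 library are given for each phosphatase whose call they change, and only in part for other genes and lists.

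MAP kinases are switched on when a threonine and a tyrosine in their activation loop are phosphorylated together. Dual specificity phosphatases remove both phosphates and switch the kinase off. Many of their genes are themselves transcribed when the cascade is active, so that they form a feedback loop on ERK, JNK or p38. Dusp1 is a known target of the glucocorticoid receptor, and in mouse Y1 adrenocortical tumour cells it is also induced by corticotropin, the pituitary hormone that drives adrenal glucocorticoid synthesis through cAMP.

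At 1 h after dexamethasone 1 phosphatase transcript was higher and 2 were lower than after PBS. No other time was sampled, so rose and fell below mean called higher or lower than after PBS. Dusp1 was 1.65-fold higher, Dusp5 was 3.71-fold lower and Dusp6 was 1.55-fold lower than after PBS. The other 7 did not pass the test, and 5 of them had negative fold changes. These 3 calls among 10 genes (1 higher, 2 lower) stand beside 4.63% of all genes tested, 3.26% called higher and 1.37% called lower, by edgeR's quasi-likelihood test at a Benjamini-Hochberg adjusted p of 0.05 over all genes. The number called over all genes, 523 higher and 219 lower, depended on single libraries. It was 337 higher without dexamethasone replicate 2, 1595 higher and 1747 lower without PBS replicate 1, 783 lower without dexamethasone replicate 1 and 361 lower without PBS replicate 2. The median log2 fold change of the 10 phosphatases was −0.51, beside 0.01 for all genes tested. In 7 of the 10 the libraries of the groups did not overlap, beside 60.5% of all genes. An unadjusted p under 0.05 was found for 6 of the 10, beside 27.5% of all genes. As the list was chosen with earlier results of these data known, these comparisons with all genes describe the list and test nothing. RNA came from whole glands, so fewer cells of a type and less RNA per cell cannot be told apart.

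The upstream sequences of the 3 genes that passed are shown because they differ in the elements through which cAMP and serum signals are known to reach genes. Each stretch runs 5′ to 3′ on the gene's own strand, from 250 to 51 bases before the RefSeq gene start in GRCm38.p6. Capitals mark matches, on either strand, to the cAMP response element TGACGTCA or its short form TGACG, and to the CArG box of the serum response element. Dusp1 is at chr17:26508523-26508722 on the minus strand, Dusp5 at chr19:53528895-53529094 on the plus strand and Dusp6 at chr10:99262981-99263180 on the plus strand.
Dusp1: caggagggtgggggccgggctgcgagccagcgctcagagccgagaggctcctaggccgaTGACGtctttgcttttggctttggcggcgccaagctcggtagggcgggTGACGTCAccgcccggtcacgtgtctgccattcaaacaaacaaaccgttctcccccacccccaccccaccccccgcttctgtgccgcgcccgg
Dusp5: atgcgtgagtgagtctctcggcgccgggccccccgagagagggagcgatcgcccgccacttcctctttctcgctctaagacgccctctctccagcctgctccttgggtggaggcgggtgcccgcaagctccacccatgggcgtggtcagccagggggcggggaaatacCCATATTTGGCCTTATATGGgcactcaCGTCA
Dusp6: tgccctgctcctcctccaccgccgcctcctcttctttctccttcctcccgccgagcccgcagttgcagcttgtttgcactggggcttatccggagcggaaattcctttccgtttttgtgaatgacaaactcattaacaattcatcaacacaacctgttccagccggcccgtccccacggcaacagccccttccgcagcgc

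The upstream stretch of Dusp1 holds the full cAMP response element 143 bases before the gene start and a short form 191 bases before it. That of Dusp5 holds adjoining CArG boxes 82 and 72 bases before the start, followed by a short cAMP form on the other strand 55 bases before it. The stretch of Dusp6 holds neither. Promoter windows of 300 bases, from 250 before to 50 after the RefSeq start, were matched for 9 of the 10 genes, all but Dusp4. The full cAMP element was found in 2 of these 9, Dusp1 and Dusp8, against 1.79% of 32851 mouse promoter windows of that length. In the window of Dusp8 it occurs at 107 and at 63 bases before the start. The short form TGACG, which the full element contains, was found in 5 of 9 (Dusp1, Dusp2, Dusp5, Dusp8 and Dusp16) against 20.8% of all windows. The CArG box was found in 1 of 9, Dusp5, against 1.63% of all windows. The glucocorticoid half-site AGAACA, searched on both strands, was in 0 of 9, against 19.0% of all windows, and the full palindromic glucocorticoid response element was also in 0 of 9, against 0.00913%. These are matches of letters in short windows and say nothing of binding in the adrenal.

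**Figure D1:**
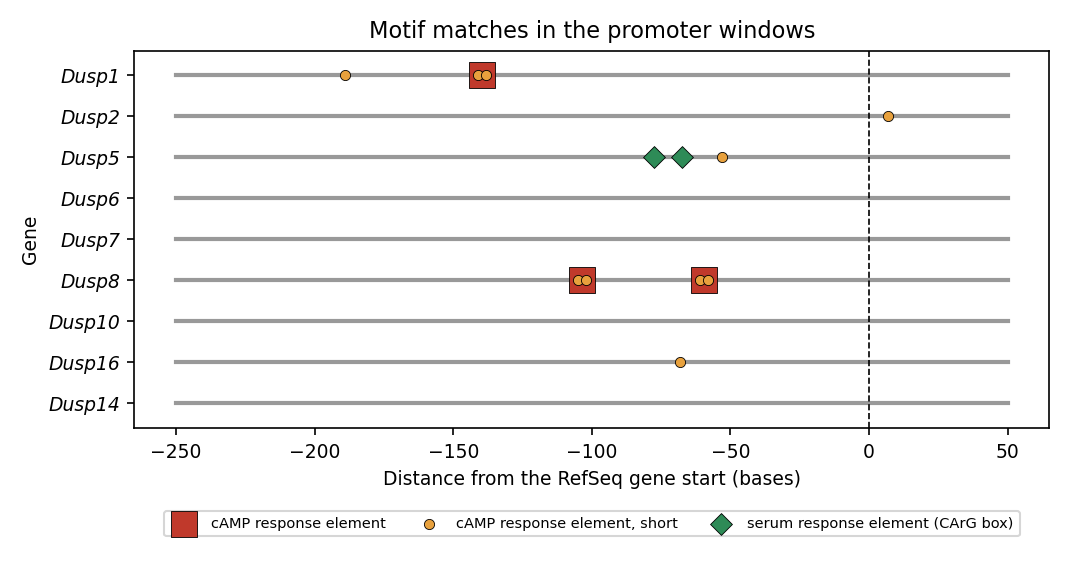
Matches to 3 motifs in the promoter windows of 9 phosphatase genes, by distance in bases from the RefSeq gene start (dashed line). Red squares are the full cAMP response element (Dusp1 and Dusp8), orange circles its short form (5 genes) and green diamonds the CArG box (Dusp5).

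The nuclear inducible enzymes, Dusp1, Dusp2, Dusp4 and Dusp5, held 1 transcript that rose, 1 that fell and 2 that did not pass. Dusp1, which acts on p38 and JNK and to a lesser extent ERK, is encoded on chromosome 17 (GRCm38, 26505590 to 26508519, ENSMUSG00000024190). Its transcripts stood at 58.8 and 58.0 CPM (read counts scaled by the TMM-adjusted library total) in dexamethasone replicates 1 and 2, against 40.7 and 30.1 CPM in PBS replicates 1 and 2. The dexamethasone libraries were nearly equal and both lay above both PBS libraries, with ratios of a dexamethasone to a PBS library from 1.42 to 1.95. The log2 fold change was 0.72 ± 0.17 (SE), with a 95% interval from 0.33 to 1.10 and an adjusted p of 0.0494, just under the threshold. Without dexamethasone replicate 2 it was 0.73 (adjusted p = 0.0792) and without PBS replicate 2 it was 0.51 (adjusted p = 0.107), and in both cases the call was lost. In GENCODE release M21 Dusp1 extends further and shares exon bases with Ergic1 on the other strand, whose log2 fold change was −0.12 (adjusted p = 0.617). In the coordinates of the count table these genes do not overlap, as Dusp1 ends at 26508519 and Ergic1 starts at 26561489.

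Dusp5, a nuclear phosphatase that acts on ERK alone and holds it in the nucleus, changed most among the 10. Its gene lies on chromosome 19 (53529109 to 53542431, ENSMUSG00000034765). There were 3.61 and 2.65 CPM in the dexamethasone libraries, from 97 and 73 reads, against 9.87 and 13.4 CPM in the PBS libraries, from 262 and 279 reads. Every dexamethasone library held at most 0.366 of the level of any PBS library. The log2 fold change of −1.89 ± 0.26 (interval −2.47 to −1.31, adjusted p = 0.00796) was among the 0.867% largest of all genes tested in absolute size. Dusp5 is the only one of the 10 that passed in all 14 alternative settings, at −2.13 to −1.67. An antisense gene of that GENCODE release shares exon bases with Dusp5 and was not analysed here. Whether counting used strand was not stated, so reads from Dusp5 and from that antisense gene cannot be told apart. The same holds for Dusp8 and its antisense partner Gm32786, which had 2 and 0 reads after dexamethasone and 0 in each PBS library.

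Dusp4, a nuclear enzyme induced with ERK activity, had 11.0 and 12.5 CPM after dexamethasone, against 17.8 and 12.8 CPM after PBS. The dexamethasone libraries lay below both PBS libraries, but by little for PBS replicate 2. The difference, a log2 fold change of −0.38 ± 0.21, missed the threshold (interval −0.85 to 0.09, adjusted p = 0.262). Dusp2, known from activated lymphocytes, was near the detection limit, with 24 and 12 reads after dexamethasone, against 14 and 16 reads after PBS. The groups overlapped (0.893 and 0.436 CPM against 0.527 and 0.769 CPM), and the interval of its log2 fold change, −1.17 to 1.27, is too wide to show a difference at this depth. All 7 lymphocyte markers examined had too few counts to be tested, and together they summed to 0.819 and 0.509 CPM in the dexamethasone libraries, against 1.05 and 2.31 CPM in the PBS libraries.

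The cytoplasmic phosphatases that act on ERK, Dusp6 and Dusp7, differed from each other in what the test found. Dusp6, a classical feedback gene of ERK signalling (chromosome 10, 99263231 to 99267489, ENSMUSG00000019960), had 98.1 and 91.9 CPM in the dexamethasone libraries, against 137 and 159 CPM in the PBS libraries. The groups were well apart, the highest dexamethasone library standing at 0.718 of the lowest PBS library. The log2 fold change was −0.64 ± 0.14 (interval −0.96 to −0.31, adjusted p = 0.0442). That call was lost without dexamethasone replicate 1 (−0.69, adjusted p = 0.0577), dexamethasone replicate 2 (−0.59, adjusted p = 0.197) or PBS replicate 2 (−0.54, adjusted p = 0.0694), and with the gene length trend removed (−0.56, adjusted p = 0.0502). Dusp7 had 20.5 and 19.4 CPM in the dexamethasone libraries, against 20.5 and 19.0 CPM in the PBS libraries. Its libraries overlapped, and its log2 fold change of 0.01 ± 0.16 had the narrowest interval of the genes that did not pass, −0.34 to 0.37.

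**Figure D2:**
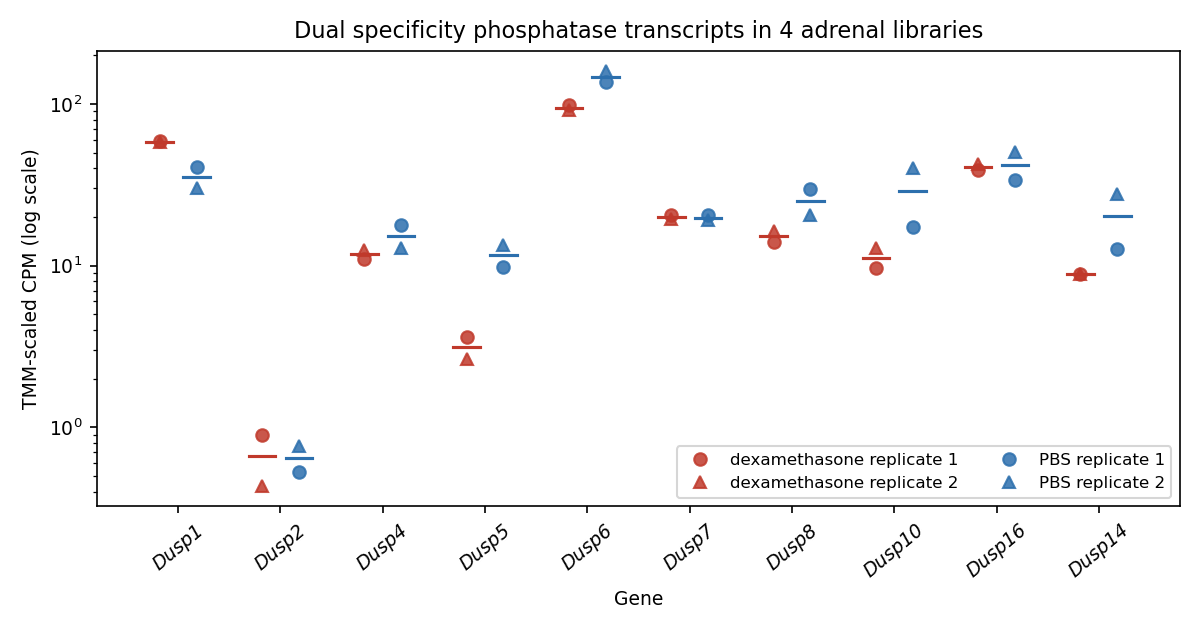
TMM-scaled CPM (log scale) of the 10 phosphatase transcripts in each library, with a line at each group's mean. Dexamethasone libraries (red) lie above PBS libraries (blue) for Dusp1 and below them for Dusp4, Dusp5, Dusp6, Dusp8, Dusp10 and Dusp14, and the groups overlap for Dusp2, Dusp7 and Dusp16.

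None of the phosphatases that prefer JNK and p38 passed in edgeR with the filter, scaling and libraries used throughout. Of these 3, 2 had an unadjusted p under 0.05. By DESeq2 Dusp8 and Dusp10 passed (2 of 3), as they did in edgeR without a count filter. By limma-voom 0 passed. Dusp8 had 14.0 and 16.4 CPM after dexamethasone, against 29.6 and 20.6 CPM after PBS. Both dexamethasone libraries were the lower ones, with a log2 fold change of −0.73 ± 0.21 (adjusted p = 0.0713). Without PBS replicate 2 the log2 fold change of Dusp8 was −0.97. Dusp10 had 9.60 and 12.8 CPM after dexamethasone and 17.4 and 40.4 CPM in PBS replicates 1 and 2. PBS replicate 2 held 2.32 times the level of PBS replicate 1, so the size of the Dusp10 difference depended on that library. With all libraries the log2 fold change was −1.36 ± 0.35 (adjusted p = 0.0590). It was −0.64 without PBS replicate 2 (adjusted p = 0.0736) and −1.86 without PBS replicate 1 (adjusted p = 6.22e-09). Dusp10 also passed without dexamethasone replicate 1 (−1.17) or 2 (−1.58). Dusp16, a JNK phosphatase that shuttles between nucleus and cytoplasm, had 39.2 and 42.5 CPM after dexamethasone, between the 33.7 and 50.2 CPM of the PBS libraries. The difference, −0.04 ± 0.19 on the log2 scale, missed the threshold (interval −0.48 to 0.40).

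Dusp14 is an atypical member, small and without the MAP kinase binding domain of the others. It stood at 8.89 and 8.87 CPM in the dexamethasone libraries, against 12.7 and 27.6 CPM in PBS replicates 1 and 2. As with Dusp10, PBS replicate 2 was the high library, at 2.17 times PBS replicate 1. The log2 fold change was −1.18 ± 0.32 (adjusted p = 0.0657), −0.53 without PBS replicate 2 and −1.66 without PBS replicate 1. It was −1.18 without dexamethasone replicate 1 and −1.18 without dexamethasone replicate 2. With all libraries Dusp14 passed by DESeq2's Wald test (−1.20, adjusted p = 0.00428) and in edgeR without a count filter (−1.18). By limma-voom it did not pass (−1.05, adjusted p = 0.0912).

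**Figure D3:**
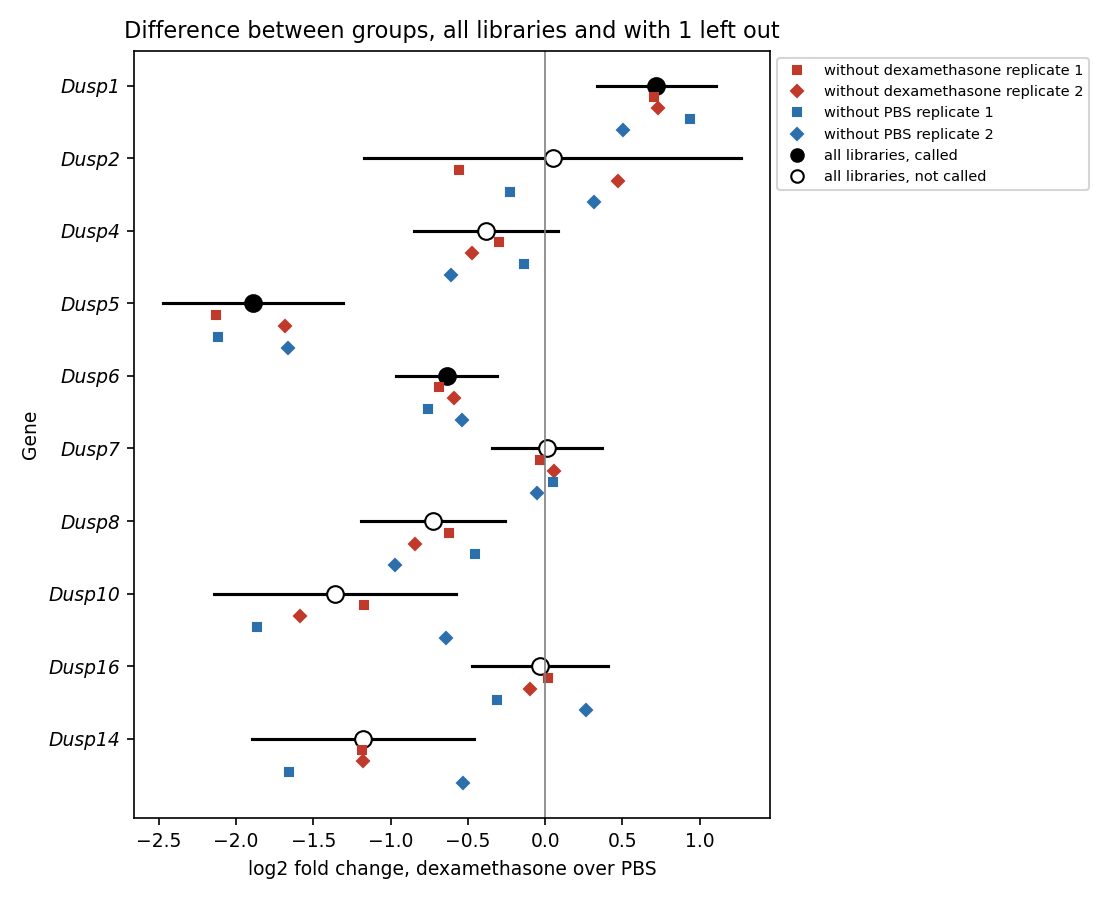
Log2 fold change of each phosphatase, dexamethasone over PBS, with its 95% interval (black line; filled circles passed, open circles did not) and the value with each library left out (coloured symbols below it). Dusp5 lies between −2.13 and −1.67 in every case, and Dusp10 and Dusp14 move most when a PBS library is left out.

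Levels of different genes were compared per kilobase of listed gene length. After dexamethasone the order was Dusp6 at 30.3 ± 1.40 CPM per kilobase (SD, n = 2), Dusp1 at 21.6 ± 0.207, Dusp7 at 5.95 ± 0.247, Dusp16 at 5.24 ± 0.303, Dusp14 at 4.57 ± 0.00945 and Dusp4 at 4.29 ± 0.384. Dusp10 (3.69 ± 0.751), Dusp8 (3.12 ± 0.343), Dusp5 (1.27 ± 0.274) and Dusp2 (0.332 ± 0.161) followed in the dexamethasone libraries. Here Dusp14, Dusp4, Dusp10 and Dusp8 overlapped with their neighbours in the order, and the other 6 pairs of neighbours were apart. After PBS Dusp6 was again first, at 47.2 ± 5.02 CPM per kilobase, and Dusp2 last, at 0.324 ± 0.0854. Between them every PBS neighbour overlapped with the next, from Dusp1 at 13.1 ± 2.79 and Dusp14 at 10.4 ± 5.42 through Dusp10, Dusp7, Dusp4, Dusp16 and Dusp8 to Dusp5 at 4.71 ± 1.01. Averaged over the 4 libraries, 92.2% of genes tested had a lower level per kilobase than Dusp6 and 81.2% a lower level than Dusp1, whereas 10.4% were lower than Dusp2.

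Dusp1 made up a larger part of this phosphatase RNA in both dexamethasone libraries than in either PBS library. In the sum of the 10 levels per kilobase, Dusp1 took 27.0% and 26.8% in the dexamethasone libraries, against 15.4% and 9.60% in the PBS libraries. Dusp6 took 38.8% and 36.7% after dexamethasone and 44.4% and 43.7% after PBS. The share of Dusp5 was 1.81% and 1.34% against 4.06% and 4.67%. The summed level of all 10 was 80.8 and 80.1 CPM per kilobase after dexamethasone, against 98.2 and 116 after PBS, so the summed level was lower while Dusp1 was higher. Per kilobase, the ratio of Dusp1 to Dusp6 was 0.696 and 0.732 in the dexamethasone libraries, against 0.346 and 0.220 in the PBS libraries. With 2 libraries per group an exact permutation test cannot give a two-sided p below 0.333, so shares and ratios were not tested. The pair in this ratio was picked after the values were seen.

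**Figure D4:**
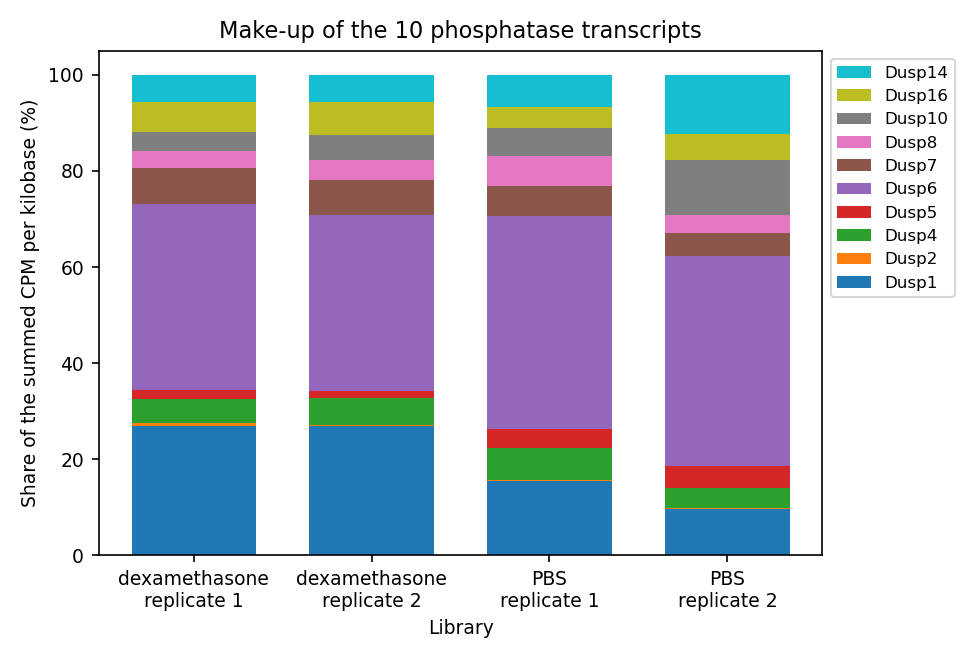
Share of each of the 10 phosphatases in their summed level per kilobase, by library, in percent. Dusp1 (bottom segment) takes 26.8% to 27.0% in the dexamethasone libraries and 9.60% to 15.4% in the PBS libraries.

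The spread between replicate pools was wider after PBS for most of these genes. The higher pool exceeded the lower by a larger ratio in PBS than in dexamethasone for 8 of the 10 phosphatases, and for 55.1% of all tested genes with a count in every library. The median ratio of the 10 was 1.11 between the dexamethasone pools and 1.41 between the PBS pools, against 1.14 and 1.18 for all those genes.

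Of 18 other tested genes with dual specificity or related phosphatase domains, 1 rose and 0 fell in edgeR with the settings used throughout. By limma-voom, and also in edgeR with no count filter, 1 was higher and 1 lower. The gene that rose was Ssh2, a slingshot phosphatase that activates the actin-severing protein cofilin and does not act on MAP kinases. Ssh2 had 38.7 and 43.1 CPM after dexamethasone, against 20.3 and 18.5 CPM after PBS (log2 fold change 1.08 ± 0.15, adjusted p = 0.00936), and its log2 fold change was 0.66 with the gene length trend removed (adjusted p = 0.0376). The call of Ssh2 was lost when the replicate block was added to that fit (0.66, adjusted p = 0.0583). Dusp9, a cytoplasmic ERK phosphatase related to Dusp6 and named here after its values were seen, had 2 and 0 reads in the dexamethasone libraries, against 12 and 9 reads in the PBS libraries. Its difference did not pass in edgeR with the settings used throughout (adjusted p = 0.0690). Of 7 tested phosphatases of other families that also act on MAP kinases, 0 passed in edgeR or by DESeq2, with 1 at an unadjusted p under 0.05. The smallest p-values there belonged to Ppp2ca and Ppp2cb, catalytic subunits of protein phosphatase 2A, with log2 fold changes of −0.36 and −0.29 (adjusted p = 0.159 and 0.236).

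Of 64 kinase and scaffold genes of the cascade that were tested, 2 rose and 1 fell, a share of 4.69%, close to the 4.63% of all genes. By DESeq2 6 of the 64 rose and 4 fell (15.6%), beside 1784 called among all 16027 genes. By limma-voom 3 rose and 1 fell (6.25%), beside 722 of all 16027. Both the number called in these lists and the number over all genes depended on which library was left out. None of the 14 MAP kinases passed with all libraries (0 by DESeq2, 2 higher without PBS replicate 2; 5 at an unadjusted p under 0.05; the closest were Mapk10, a JNK gene, at 0.75 with an adjusted p of 0.0800, and Mapk15 at 1.33 with 0.109). Likewise 0 of 7 MAP kinase kinases passed in edgeR with all libraries (1 lower by DESeq2, 1 higher and 1 lower without PBS replicate 1; 2 at an unadjusted p under 0.05), with Map2k2, which activates ERK, at −0.61 (adjusted p = 0.0601) and Map2k6, which activates p38, at 0.87 (adjusted p = 0.156).

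The 23 MAP kinase kinase kinases had a median log2 fold change of 0.33, beside 0.01 for all genes. Removing the gene length trend brought this list median down to 0.11, beside −0.02 for all genes. The list median also depended on the PBS library used, at 0.50 with replicate 1 dropped and 0.19 with replicate 2 dropped. Of the 23 genes 10 (43.5%) had an unadjusted p under 0.05 in the fit with all libraries, beside 27.5% of all genes. With all libraries 1 rose, against 9 higher and 1 lower without PBS replicate 1, 3 higher without dexamethasone replicate 1 and 2 higher without PBS replicate 2. The gene that rose was Map3k9, a mixed lineage kinase upstream of JNK, at 8.49 and 11.7 CPM after dexamethasone against 4.25 and 4.28 CPM after PBS. The log2 fold change of Map3k9, 1.24 ± 0.23 (adjusted p = 0.0247), missed the threshold without dexamethasone replicate 2 (0.99, adjusted p = 0.101). Among 9 scaffolds Ksr2, which holds Raf, MEK and ERK together, rose to 25.6 and 24.3 CPM after dexamethasone, against 10.6 and 10.3 CPM after PBS (1.25 ± 0.16, adjusted p = 0.00776). Of 11 kinases activated by MAP kinases 1 fell, Mapkapk3, a p38 substrate kinase, with 20.7 and 16.9 CPM in the dexamethasone libraries, against 44.4 and 62.5 CPM in the PBS libraries (−1.51 ± 0.20, adjusted p = 0.00776). Ksr2 and Mapkapk3 passed in all 14 alternative settings.

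Among 16 transcripts known to follow ERK activity 0 passed in edgeR with the filter, scaling and libraries used throughout, and 5 had an unadjusted p under 0.05. Their median log2 fold change was −0.32, beside 0.01 for all genes, and 13 of 16 were negative, beside 49.0% of all genes. DESeq2 called 1 higher and 2 lower, limma-voom 1 higher, and edgeR with no count filter 1 higher and 4 lower. With a library left out there were 2 higher and 4 lower without PBS replicate 1, 1 higher without dexamethasone replicate 1, and 2 lower without dexamethasone replicate 2 or PBS replicate 2. Myc had 34.1 and 33.0 CPM after dexamethasone, against 46.5 and 60.7 CPM after PBS (−0.67 ± 0.17, adjusted p = 0.0545). Spred1, an inhibitor of Raf activation, had 380.3 and 410.1 CPM after dexamethasone, against 278 and 206 CPM after PBS (0.71 ± 0.17, adjusted p = 0.0548). Fos and Egr1, immediate early transcription factors named after their values were seen, were lowest in dexamethasone replicate 1. Fos had 1.90 and 7.05 CPM after dexamethasone, against 11.3 and 10.1 CPM after PBS, and Egr1 had 11.8 and 52.7 CPM against 79.3 and 60.4 CPM.

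**Figure D5:**
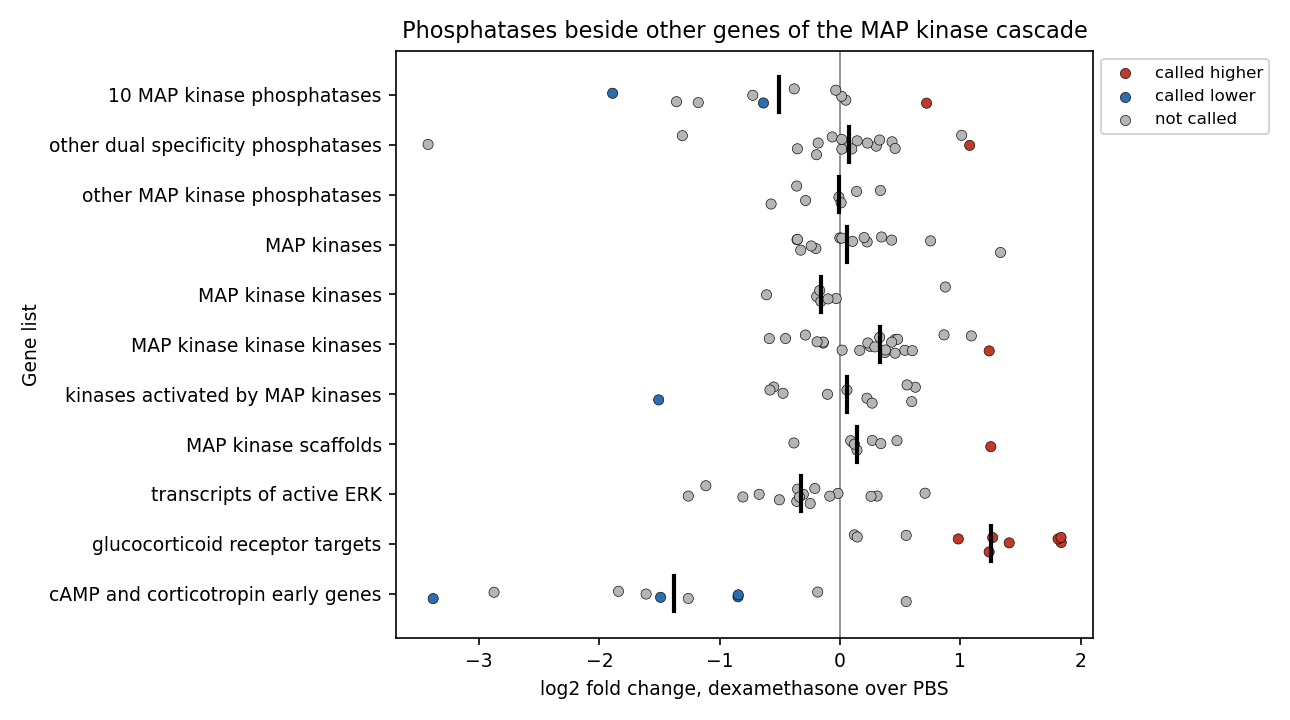
Log2 fold change, dexamethasone over PBS, of every tested gene in 11 lists, with black bars at list medians. The 10 phosphatases (top row, median −0.51) have 1 called gene on the higher and 2 on the lower side, and the kinase and scaffold lists have 2 higher and 1 lower in all.

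Library totals were 21904510 to 26948588 counts. The steroidogenic genes Star and Cyp11b1 and the chromaffin gene Th, named as a check of the tissue, were abundant in all 4 libraries. Star had 13217 and 13557 CPM after dexamethasone, against 22227 and 18970 CPM after PBS, and did not pass in edgeR (−0.62, adjusted p = 0.0553). Of 10 glucocorticoid receptor targets 7 rose, with Fkbp5 at a log2 fold change of 1.24 and Tsc22d3 at 1.41, and of 10 early genes of cAMP and corticotropin signalling 4 fell. That count was 8 lower without dexamethasone replicate 2, 8 lower and 1 higher without PBS replicate 1, and 2 lower with the replicate block.

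Markers of the gland's cells also passed in some lists. Of 7 steroidogenic markers 1 was called lower, Nr5a1, and 3 were by DESeq2. All 7 had negative fold changes, beside 49.0% of all genes, and 4 (57.1%) had an unadjusted p under 0.05, beside 27.5%. Together they summed to 45256 and 41977 CPM after dexamethasone against 59595 and 59751 CPM after PBS. Of 5 red blood cell markers 3 fell (146 and 137 CPM after dexamethasone against 226 and 394 CPM after PBS). All 5 were negative with an unadjusted p under 0.05. For the red blood cell markers the count was 5 lower without PBS replicate 1, 2 without PBS replicate 2, 2 with the replicate block and 0 with the gene length trend removed. Leaving out either PBS library, or dexamethasone replicate 1, gave 2 steroidogenic markers called lower. Of 7 macrophage markers 2 rose, Mrc1 and Cd163, the second of them in 6 of 14 alternative settings (summed 315 and 262 CPM against 243 and 312 CPM), and 2 others were called lower without PBS replicate 1. Of 7 fibroblast and capsule markers 1 fell, Rspo3. Rspo3 passed in 10 of 14 alternatives, and its call was lost without dexamethasone replicate 1 (−0.70), with the replicate block (−0.81), with the length trend removed (−0.73) and with both (−0.73). None of 7 chromaffin and 7 endothelial markers passed in edgeR with all libraries or by DESeq2, with 0 at an unadjusted p under 0.05 in either list. For chromaffin markers 2 were higher without PBS replicate 2, 1 without dexamethasone replicate 2 and 1 with no count filter. Fold changes also ran with listed gene length, at a Pearson r of 0.392 across protein-coding genes, which are not independent replicates. Genes within a factor of 1.25 of the length of Dusp1, Dusp5 and Dusp6 had median log2 fold changes of −0.14, −0.16 and −0.10. The part of cell makeup and of the length trend in the phosphatase results was not tested beyond the fits with that trend removed, where Dusp1 stood at 0.83 and Dusp5 at −1.76 and both passed, and Dusp6 stood at −0.56 and did not (adjusted p = 0.0502).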

How the data were processed

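RNA-seq libraries of pooled mouse adrenal glands, 2 after dexamethasone and 2 after PBS, were analysed from the deposited table of raw read counts per gene. The tools named in the submitters' processing notes are STAR 2.5, HTSeq 0.6.1 and CASAVA 1.8, and the build is mm10 (GRCm38). Settings, strand included, were not stated. Per the file headers, the deposited table also lists a gene length (in bases, used with no other scaling), whose derivation is not stated. Column names hold D or S and a number, read as dexamethasone, saline and the replicate. The 9 upstream windows come from RefSeq (GRCm38.p6), and 9 of 10 phosphatases had the coordinates of GENCODE M21.

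Genes were kept with filterByExpr by group (minimum count 10), scaled with TMM factors and tested with edgeR 4.0.16 (glmQLFit, glmQLFTest) in R 4.3.3, two-sided, with group as the sole term and 2 residual degrees of freedom. The Benjamini-Hochberg adjustment covered all genes tested, with a threshold of 0.05. Each standard error is the size of the fitted log2 difference over the root of its F statistic. Intervals cover 95%. P-values and intervals set group differences against the spread between pools of mice. For each gene that spread was moderated with an estimate shared over all genes tested. Replicates differed by a chi-square of 26.3 (dexamethasone) and 33.6 (PBS) per degree of freedom, above sampling noise.

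Alternatives were other scalings, DESeq2 1.42.0, limma-voom (limma 3.58.1), other filters, removal of the length trend (a natural spline with 4 degrees of freedom on log2 length, taken from each library), the replicate number as a block, and each library left out. The phosphatases and gene lists were chosen with earlier results of these data known. Named genes were all 10 phosphatases, every gene of a cascade list that passed, the 2 smallest p-values of a list where none passed, and marker genes that passed; exceptions are said to be.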

Additional observations from a re-analysis of the deposited data

How the results depend on the processing

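Dusp5 kept its direction and its call in all 14 alternatives and Dusp1, Dusp4, Dusp6, Dusp8, Dusp10 and Dusp14 kept their direction in all 14. Dusp1 lost its call with DESeq2 size factors in edgeR (0.71, adjusted p = 0.0511; 0 phosphatases higher). Dusp6 lost its call with library totals (−0.54) and with the length trend removed (−0.56), each leaving 1 phosphatase lower. By DESeq2's Wald test 5 phosphatases were lower, with Dusp8 (−0.74), Dusp10 (−1.38) and Dusp14 (−1.20) added, and without a count filter also 5 (−0.73, −1.36 and −1.18). Dusp10 passed as well with at least 10 counts in every library (−1.35). Signs of genes near 0 reversed for Dusp16 with library totals (0.062) and limma-voom (0.00035), for Dusp2 with limma-voom (−0.015) and, with a library left out, for Dusp2 (−0.56 to 0.47), Dusp7 (−0.052 to 0.054) and Dusp16 (−0.31 to 0.27). The causes were not tested.

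The replicate numbers pair nothing in the labels, and same-numbered deviations correlated at −0.03 across genes. With the replicate block, which leaves 1 residual degree of freedom, 244 genes were higher and 89 lower, Dusp1 (0.74) and Dusp6 (−0.63) lost their calls, leaving 0 phosphatases higher, and Dusp10 passed (−1.26). With the block and the length trend removed 291 genes were higher, Dusp6 did not pass (−0.56) and Dusp10 did (−1.18). 

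Over all genes, 893 were higher with library totals (83.2% of calls higher, against 70.5%), 914 were higher and 870 lower by DESeq2, 1384 higher and 1329 lower with no filter, and 306 higher with the length trend removed. With library totals the median over all genes was 0.10 on the log2 scale, against 0.01. Cascade genes are counted here over the kinase and scaffold lists, the other phosphatases (Ssh2 included) and the transcripts that follow ERK activity. With the settings used in the results 105 were tested, with 3 called higher and 1 lower. The counts were 8 higher with library totals, 8 and 6 by DESeq2 and 5 and 2 by limma-voom. They were 11 and 9 with no filter and 6 and 2 with at least 10 counts in every library. With a library left out, where the lone library of a group is assumed to vary like the other group, 337 to 1595 genes were higher and 147 to 1747 lower, 0 to 1 phosphatases were higher and 2 to 4 lower, and 3 to 18 cascade genes were higher and 1 to 8 lower. Log2 fold changes then ranged from 0.51 to 0.94 for Dusp1, −0.76 to −0.54 for Dusp6, −0.97 to −0.46 for Dusp8, −1.86 to −0.64 for Dusp10 and −1.66 to −0.53 for Dusp14. Division by gene length moved the Dusp1 share to 26.9% after dexamethasone, against 22.0% without it. Depth limits Dusp2, counted 12 to 24 times, for which DESeq2 gave no adjusted p.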
